A study of Mus musculus with 4 samples.

Results

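The genes described here are 34 splicing factors of the SR, Tra2, hnRNP and related families, chosen by name from a list and not by their values, among 17305 genes named in the exon tables. They comprise 12 SR and Tra2 genes, 15 hnRNP genes and 7 others (Tardbp, Matr3, Raver1, U2af1, U2af2, Pcbp1 and Pcbp2). Poly(A) RNA was sequenced as strand-specific paired reads of 100 bases from N2A cells, an established mouse neuroblastoma line. Each of 4 groups was 1 library: cells transfected with an shRNA against Ptbp1, with an shRNA against Ptbp2, with both, or with a control shRNA. Transfection lasted 5 h in suspension and cells were then cultured for 3 days. The 3 comparisons share the single control library and have no replicate, so no test across samples was possible. Wilson 95% intervals cover counting error only. Fewer cells of a type and less RNA per cell cannot be told apart in such bulk samples.

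SR proteins bind exonic enhancers and promote exon use, whereas many hnRNP proteins bind silencers and repress it. Both families commonly limit their own amount through poison exons, which carry a premature stop codon and send the transcript to nonsense-mediated decay (NMD) when included. Ptbp1 and Ptbp2 are polypyrimidine tract binding proteins, hnRNP-type repressors whose exchange in developing neurons changes the splicing of many exons. Because decay removes the transcripts that hold a poison exon, the measured inclusion is a steady-state share and not the share made.

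Among the cassette exons of these genes, 7 were annotated in GENCODE only in NMD transcripts and were skipped in a coding transcript of the same gene. They belonged to Srsf3, Srsf7, Srsf9, Srsf11, Tra2a, Tra2b and Hnrnpd. A further 4 NMD exons, 2 of Hnrnpa1 and 1 each of Hnrnpu and Tardbp, were not counted because no annotated coding transcript skips them. The 1711-nt exon of Hnrnpa1 among these was included at 89.5%, 88.9% and 86.5% in the Ptbp1, Ptbp2 and double knockdowns, against 92.1% in control cells, which lay above all 3 with intervals apart. The other 3 ranged from 99.6% to 100% over the libraries, with that of Hnrnpu resting on 8 to 60 junction reads. Srsf1, Srsf2, Srsf4, Srsf5, Srsf6 and Srsf10 had no cassette exon of this class among those measured. For 6 of the 7 NMD exons counted, all but that of Hnrnpd, the exon was read in the frame of a coding transcript, and each reached a stop codon inside the exon. These 6 are called poison exons here. Their sequences are shown because the inclusion results turn on these exons. Each runs 5′ to 3′ from the first base of the exon to the first in-frame stop codon, which is in capitals, as in the GENCODE M21 transcripts on GRCm38.
Srsf3, chr17:29039454-29039487, plus strand: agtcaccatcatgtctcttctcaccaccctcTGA
Srsf7, chr17:80205054-80205081, minus strand: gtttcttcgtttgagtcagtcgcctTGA
Srsf9, chr5:115331450-115331460, plus strand: aaaactatTAG
Srsf11, chr3:158024209-158024231, minus strand: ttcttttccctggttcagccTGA
Tra2a, chr6:49252965-49253108, minus strand: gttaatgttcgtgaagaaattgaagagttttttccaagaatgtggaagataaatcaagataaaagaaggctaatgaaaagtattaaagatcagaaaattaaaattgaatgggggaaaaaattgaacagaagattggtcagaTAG
Tra2b, chr16:22259181-22259261, minus strand: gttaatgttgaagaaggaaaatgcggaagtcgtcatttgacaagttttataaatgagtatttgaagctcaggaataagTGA
The stop codon lay within 34 bases of the exon start in Srsf3, Srsf7, Srsf9 and Srsf11. The exons of the paralogs Tra2a and Tra2b opened with the same 9 bases and carried the stop further in, at bases 142 and 79 of the exon. The Srsf9 stop was found in the frame of the coding transcript, while the stop annotated in its NMD transcript lies upstream of the exon. The Hnrnpd exon lies after the normal stop codon, in the 3′UTR, and has no such sequence.

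The libraries held between 207 M and 258 M exon reads (M, 1e6), summed over the exons of the SpliceTrap list. The shRNA targets were low where they were targeted. Levels are exon reads in CPM (reads over library size times 1e6, with library sizes scaled by the median of ratios) and are compared within a gene. Ptbp1 had 186, 728 and 142 CPM in the Ptbp1, Ptbp2 and double knockdowns, against 639 CPM in control cells. Ptbp2 had 267, 36.9 and 57.9 CPM in the Ptbp1, Ptbp2 and double knockdowns, against 137 CPM in control cells. Of 12 neuroblastoma markers, 10 were at 1 CPM or more in every library, with a summed level of 1865, 1937 and 1686 CPM in the Ptbp1, Ptbp2 and double knockdowns and 1957 CPM in control cells. Marker lists of 6 other cell types summed to at most 7.74 CPM in any library, and no measured marker of microglia and blood passed 1 CPM.

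Of the 6 poison exons of SR and Tra2 genes, 5 (those of Srsf3, Srsf7, Srsf9, Tra2a and Tra2b) were included more in the double knockdown than in control cells, beyond counting error. In each of these 5 the double knockdown had the highest inclusion of the 4 libraries. Inclusion is the share of junction reads that join the exon, out of those that join it or skip it. Of the 7 NMD exons, 6, 7 and 7 were above control in the Ptbp1, Ptbp2 and double knockdowns. The Wilson interval lay wholly above that of control for 3, 3 and 5 of them in the same order of knockdowns. An exon was called when its inclusion differed by at least 10 percentage points, with intervals apart and at least 20 junction reads in both libraries. By that rule 0, 0 and 3 of the 7 were called higher in the Ptbp1, Ptbp2 and double knockdowns and none lower.

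Exons of similar inclusion give the background. Among all 205 NMD exons of other genes with a mean inclusion of 1 to 50% and at least 100 junction reads, 59.0%, 64.4% and 68.8% were above control in the Ptbp1, Ptbp2 and double knockdowns. Intervals lay above control for 9.27%, 10.2% and 17.1% of them, and 2.93%, 1.46% and 6.83% were called higher. Among all 1095 cassette exons of such inclusion and depth, 56.8%, 49.4% and 59.9% were above control. Exons of the genes described here are among those 1095. Intervals lay above control for 20.5%, 6.21% and 25.3% of those. The 7 exons were not tested against these shares. This range of inclusion was set after the values were seen.

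Srsf9 encodes a small SR protein and had the poison exon with the highest gain. Its 90-nt exon (mm9 chr5:115781459-115781548) was included at 14.7%, 15.5% and 28.5% in the Ptbp1, Ptbp2 and double knockdowns, against 8.04% in control cells. The intervals were 13.1 to 16.4%, 14.2 to 16.9% and 26.7 to 30.4% in the knockdowns, against 7.12 to 9.05% in control cells. All 3 knockdowns stood above control, and the double knockdown stood above both single knockdowns. Junction reads numbered 1800, 2801 and 2290 in the knockdowns and 3049 in control cells.

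Tra2a and Tra2b encode paralogous splicing activators that bind purine-rich enhancers. The 306-nt exon of Tra2a (mm9 chr6:49202802-49203107) was included at 20.9%, 19.6% and 25.1% in the Ptbp1, Ptbp2 and double knockdowns, against 12.9% in control cells. Its interval in control cells, 10.8 to 15.4%, lay below those of all 3 knockdowns, which overlapped one another. The 276-nt exon of Tra2b (mm9 chr16:22259059-22259334) was included at 19.8%, 18.6% and 26.6% in the Ptbp1, Ptbp2 and double knockdowns, against 16.01% in control cells. For Tra2b the double knockdown alone stood apart, at 24.2 to 29.1% against 14.1 to 18.1% in control cells, and it was also above both single knockdowns.

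Srsf3 and Srsf7 encode closely related SR proteins, and neither exon moved by 10 points. The 456-nt exon of Srsf3 (mm9 chr17:29176399-29176854) was included at 7.77%, 5.49% and 9.84% in the Ptbp1, Ptbp2 and double knockdowns, against 4.23% in control cells. Intervals in the Ptbp1 and double knockdowns, 6.72 to 8.97% and 8.74 to 11.1%, lay above the 3.57 to 5.01% of control cells, and that of the Ptbp2 knockdown overlapped it. The 460-nt exon of Srsf7 (mm9 chr17:80603962-80604421) was included at 18.3%, 18.8% and 22.6% in the Ptbp1, Ptbp2 and double knockdowns, against 16.1% in control cells. Only the double knockdown, at 20.8 to 24.6%, stood apart from the 14.6 to 17.9% of control cells.

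The exons of Srsf11, an SR-related protein, and Hnrnpd, which binds AU-rich elements and regulates mRNA turnover, were rarely included. The 109-nt exon of Srsf11 (mm9 chr3:157687087-157687195) was at 3.29%, 7.43% and 5.17% in the Ptbp1, Ptbp2 and double knockdowns, against 5.11% in control cells, with overlapping intervals. The 107-nt exon of Hnrnpd (mm9 chr5:100391117-100391223) was at 2.00%, 4.10% and 2.47% in the Ptbp1, Ptbp2 and double knockdowns, against 1.91% in control cells. Here the Ptbp2 knockdown stood apart, at 3.56 to 4.71% against 1.53 to 2.37% in control cells.

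**Figure D1:**
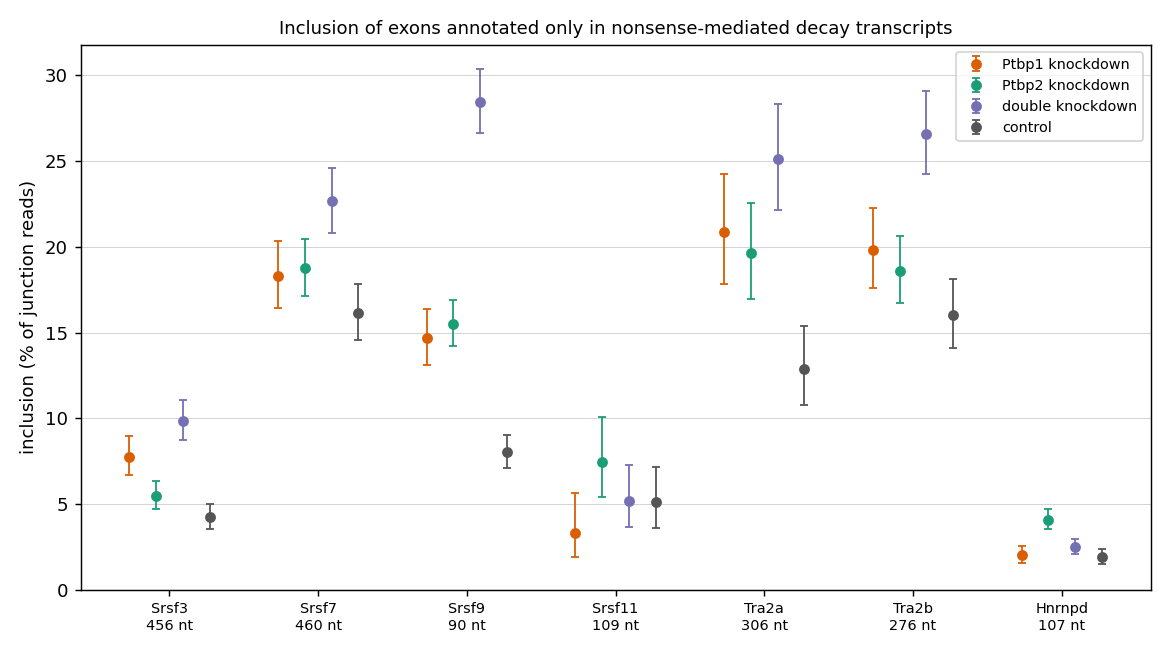
Inclusion of the 7 NMD exons as a percentage of junction reads in the 3 knockdown libraries and the control library, with Wilson 95% intervals as bars. Srsf9 reached 28.5% in the double knockdown against 8.04% in control cells, and Srsf11 and Hnrnpd stayed under 10% in every library.

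The junction reads themselves show which form differed. For Srsf9, junctions into the exon had 1.17, 1.87 and 2.45 CPM in the Ptbp1, Ptbp2 and double knockdowns, against 1.02 CPM in control cells. Its skipping junction, which belongs to the coding form, had 6.83, 10.2 and 6.17 CPM in the same knockdowns, against 11.7 CPM in control cells. On the log2 scale the skipping junction of Srsf9 differed by −0.77, −0.19 and −0.92, and all exon reads of the gene by −0.59, 0.01 and −0.62.

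In the double knockdown the skipping junctions of Tra2a, Tra2b, Srsf3 and Srsf7 differed by −0.45, −0.37, −0.49 and −0.28 on the log2 scale. The exon reads of the same 4 genes differed by −0.13, −0.11, −0.37 and −0.12. The skipping junction was thus further below control than the gene in each case. A higher inclusion share brings this with it where junction reads follow the gene, so it is not a separate result. The inclusion junctions of the same 4 genes were above control by 0.73, 0.56, 0.81 and 0.33. In the Ptbp2 knockdown the inclusion junctions of Srsf9, Tra2a, Srsf7 and Tra2b were higher by 0.88, 0.61, 0.40 and 0.48, while exon reads of these genes were within 0.05 of control. For Srsf7 and Tra2b the skipping junctions were also above control there. The inclusion intervals of both genes in the Ptbp2 knockdown overlapped those of control, so no gain in share beyond counting error was seen for them.

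**Figure D2:**
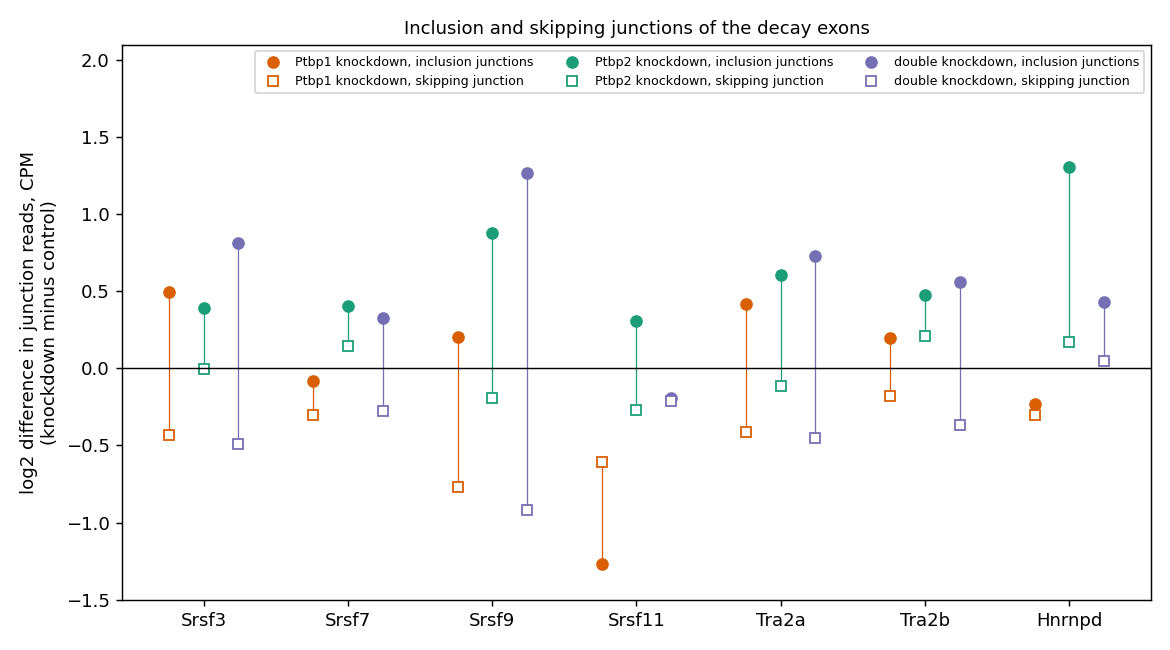
Log2 differences (knockdown minus control) in CPM of the junctions that include each NMD exon (filled circles) and of the junction that skips it (open squares), for 3 knockdowns. For Srsf9 in the double knockdown the inclusion junctions were at 1.27 and the skipping junction at −0.92, while Srsf11 in the Ptbp1 knockdown had both below control.

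Cufflinks also gave levels for noncoding RefSeq transcripts of these genes. That of Srsf3 was at 33.0, 24.7 and 35.9 FPKM (fragments scaled by transcript length and library size, here to a common total) in the Ptbp1, Ptbp2 and double knockdowns, against 19.7 FPKM in control cells. That of Srsf9 was at 10.9, 16.5 and 19.9 FPKM, against 9.52 FPKM in control cells. The order of the libraries in FPKM was the same as for junction inclusion at both genes. Inclusion is a share, however, and as a share of the locus FPKM the order differed at Srsf3. Its transcript held 33.9%, 19.1% and 29.0% in the same order of knockdowns, against 16.1% in control cells, highest in the Ptbp1 knockdown. That of Srsf9 held 13.4%, 15.3% and 23.5%, against 8.86% in control cells, in the order of inclusion. Srsf9 had no usable gene FPKM in any library, and its locus may hold another gene, so this share is uncertain. The noncoding transcript of Srsf7 was at 7.52 FPKM in the double knockdown and listed at 0 in the others. That of Tardbp was listed at 0 in the Ptbp1 and Ptbp2 knockdowns and was at 6.51 FPKM in the double knockdown, against 5.17 FPKM in control cells.

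Few other exons of these genes were called. In all, 306 cassette exons in 33 of the 34 genes were listed, since Pcbp1 has a single exon. In the Ptbp1 knockdown 1 of 304 measured exons was called higher (0.346% of all cassette exons) and 0 lower (0.222%). In the Ptbp2 knockdown 0 of 304 were called higher or lower (0.0692% and 0.34% of all exons). In the double knockdown 5 of 305 were called higher (0.482% of all exons) and 1 lower (0.486%). None of the 143 coding exons whose length shifts the frame was called in any comparison, and their differences ranged from −6.91 to 7.96 points. None of the 120 frame-keeping coding exons was called either, with differences from −6.48 to 4.37 points.

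The called exons outside the NMD class were not coding, and those named next were picked after their values were seen. Hnrnpa2b1 encodes a protein of the hnRNP core particle, and its 136-nt exon in the 3′UTR (mm9 chr6:51411919-51412054) occurs in both coding and NMD transcripts. It was included at 69.9%, 50.2% and 84.7% in the Ptbp1, Ptbp2 and double knockdowns, against 57.2% in control cells. The Ptbp1 and double knockdowns stood above control, and the Ptbp2 knockdown stood below it at 48.0 to 52.3% against 54.6 to 59.8% in control cells. The call held in the double knockdown, where the difference was 27.5 points, and in the Ptbp1 knockdown, where it was 12.7 points.

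Hnrnph2 encodes a protein that binds G-rich runs, and its 45-nt exon in the 5′UTR (mm9 chrX:131137457-131137501) was included at 30.9%, 44.9% and 21.5% in the Ptbp1, Ptbp2 and double knockdowns, against 40.5% in control cells. The double knockdown was called lower, and the Ptbp1 knockdown was lower with intervals apart. A 64-nt Srsf11 exon found only in noncoding transcripts was included at 63.2%, 50% and 65.8% in the Ptbp1, Ptbp2 and double knockdowns, against 37.7% in control cells. It was called in the double knockdown but rested on 73 junction reads there, against 61 in control cells.

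Smaller differences with intervals apart were seen in more exons, of which 2 untranslated exons and 1 coding exon are given here. In the Ptbp1, Ptbp2 and double knockdowns, intervals of 2, 1 and 1 frame-keeping coding exons lay above control and 5, 7 and 10 below. For frame-shifting coding exons the counts were 0, 1 and 1 above and 1, 5 and 3 below. For untranslated exons, called ones included, they were 4, 1 and 5 above and 1, 2 and 1 below. Matching shares over all cassette exons of these classes were not computed. The counts therefore cannot be read as particular to these genes. Hnrnpc encodes another core particle protein, and its 1223-nt exon in the 5′UTR (mm9 chr14:52716997-52718219) was at 19.98%, 18.5% and 21.4% in the Ptbp1, Ptbp2 and double knockdowns, against 12.7% in control cells. Srsf2 has a 104-nt 3′UTR cassette exon (mm9 chr11:116712962-116713065) that also occurs in NMD transcripts, and it was at 5.15%, 4.83% and 5.55% in the Ptbp1, Ptbp2 and double knockdowns, against 4.12% in control cells. The interval of the double knockdown, 5.03 to 6.13%, lay above the 3.70 to 4.599% of control cells. U2af1 encodes the small subunit of the factor that reads the 3′ splice site, and one of its 67-nt alternative exons (mm9 chr17:31789447-31789513), a coding exon whose length shifts the frame, was at 17.8%, 24.4% and 20.5% in the Ptbp1, Ptbp2 and double knockdowns, against 16.4% in control cells. The Ptbp2 knockdown had the highest value, and its interval and that of the double knockdown lay above control.

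**Figure D3:**
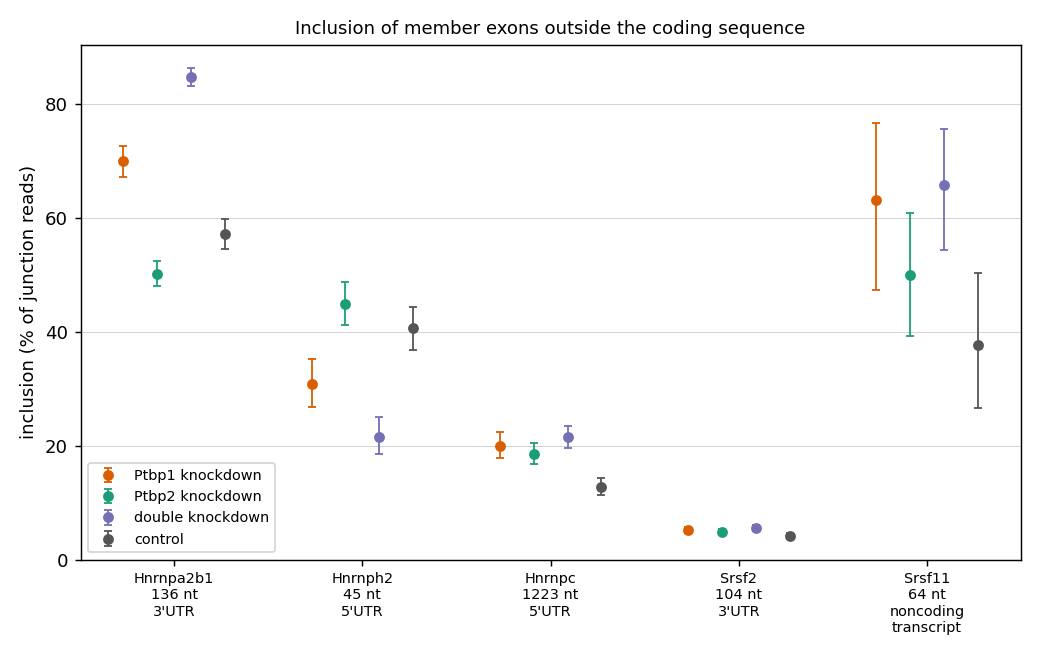
Inclusion, as a percentage of junction reads with Wilson 95% intervals, of 5 member exons outside the coding sequence in the 3 knockdown libraries and the control library. The Hnrnpa2b1 exon was at 84.7% in the double knockdown against 57.2% in control cells, while the Hnrnph2 exon was at 21.5% against 40.5%.

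Retained introns and alternative splice sites were read from the SpliceTrap inclusion ratio, with a call at a difference of 0.1. None of 10 retained introns in 6 of the genes was called, against 7.37%, 9.27% and 11.0% of all retained introns called higher in the Ptbp1, Ptbp2 and double knockdowns and 4.68%, 6.34% and 6.29% called lower. The 196-nt intron of Srsf1, a prototypical SR protein, had a ratio of 10.8%, 8.0% and 10.6% in these knockdowns, against 8.0% in control cells. Its share of junction reads was 8.58%, 7.40% and 8.62% in the same knockdowns, against 5.95% in control cells, with intervals above control in the Ptbp1 and double knockdowns. For Tardbp, which encodes TDP-43, the 721-nt intron had a ratio of 92.1%, 86.1% and 88.1% in the Ptbp1, Ptbp2 and double knockdowns, against 90.9% in control cells. Its share of junction reads was 63.1%, 48.0% and 52.1% in these knockdowns, against 56.3% in control cells, with the interval of the Ptbp1 knockdown above that of control and the others below it. The other listed introns of Tardbp overlap one another and had ratios from 93.3% to 99.6% over the libraries. Because of this overlap, the 10 introns are not independent events. The Hnrnpm intron had a ratio of 0 in every library, but its share of junction reads was 100% in each, so the measures disagree. They also lay far apart for the 647-nt intron of U2af2. Its ratio was 12.9%, 14.9% and 12.9% in the Ptbp1, Ptbp2 and double knockdowns, against 10.1% in control cells. Its share of junction reads was 96.8%, 97.7% and 98.5%, against 96.6% in control cells. In the Ptbp1 knockdown no alternative splice site of these genes was called, against 5.75% of all such events higher and 4.02% lower. In the Ptbp2 knockdown none was called either, against 4.8% of all events higher and 4.27% lower.

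In the double knockdown 2 of 31 alternative 3′ splice site events were called lower and 1 of 30 alternative 5′ splice site events higher. Of all alternative splice site events, 4.64% were called lower and 6.89% higher. Both lower events were the same 60-nt segment of Hnrnpk, a poly(C) binding protein, listed in 3 events that differ in the flanking exon. Their ratios were 49.3%, 47.3% and 48.0% in the double knockdown, against 62.2%, 59.0% and 57.3% in control cells, and the third, at 9.3 points, was not called. All 3 share the same junctions, whose share of reads for the segment was 43.7%, 53.3% and 39.2% in the Ptbp1, Ptbp2 and double knockdowns, against 47.7% in control cells. The higher one was a 9-nt segment of Srsf7, used in 62.0%, 53.0% and 66.7% of junction reads in the Ptbp1, Ptbp2 and double knockdowns, against 52.6% in control cells. Some events not called by ratio differed more in junction reads. These Hnrnpc examples were picked after their values were seen. Its 693-nt segment was at 34.9%, 38.4% and 39.1% in the same knockdowns, against 27.0% in control cells. Its 504-nt segment was at 23.8%, 24.3% and 32.9%, against 19.1%. Its 39-nt segment went both ways, at 54.6%, 42.8% and 54.0%, against 49.0%.

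In exon reads, levels were below control in the Ptbp1 and double knockdowns for nearly all of these factors, by less than 1.5-fold in most, but FPKM did not give the same picture in the double knockdown. Of the 33 genes with exon reads, 33, 17 and 31 were below control in the Ptbp1, Ptbp2 and double knockdowns. The same was true of 56.5%, 50.6% and 52.6% of all 10876 genes tested, and of 81.7%, 53.7% and 69.4% of the 2506 genes with a mean of at least 100 CPM. The median log2 difference of the 33 was −0.38, −0.01 and −0.27 in the Ptbp1, Ptbp2 and double knockdowns. The 2506 abundant genes had medians of −0.24, −0.02 and −0.12, and all genes −0.06, 0.00 and −0.02. Relative to the median of abundant genes, 26, 11 and 28 of the 33 were lower.

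By FPKM, which could be read in all 4 libraries for 20 of the genes, 14, 6 and 10 of the 20 were below control in the Ptbp1, Ptbp2 and double knockdowns. The share of all 7871 genes below control by FPKM was 41.8%, 49.1% and 40.6%. Their median log2 difference by FPKM was 0.07, 0.00 and 0.08 in the same order. For the 19 genes with both measures, the median log2 difference in the double knockdown was 0.00 by FPKM and −0.24 in exon reads. All 19 were below control there in exon reads, but 9 by FPKM. Tra2b, Srsf11 and Tra2a were above control there by FPKM, at 0.39, 0.23 and 0.23 on the log2 scale. The direction of these levels relative to control in the double knockdown therefore depends on the measure. Relative to all genes, the median of the 19 was lower by both measures there. It was 0.00 against 0.08 by FPKM, and −0.24 against −0.02 in exon reads.

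Scaling sets how many of these genes lie below control. Scaling by total exon reads moved the median of all genes by 0.22 in the Ptbp1 knockdown and 0.15 in the double knockdown, and then 27 and 24 of the 33 were below control. The counts below the median of all genes were 33 and 31 under each of the 3 scalings.

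Calls at 1.5-fold were few. In the Ptbp1 knockdown 3 of 33 were called lower, Srsf9, Hnrnpab and Hnrnpf (5.19% of all genes), and 0 higher (9.37%). In the Ptbp2 knockdown 0 were called lower (8.69%) or higher (3.99%). In the double knockdown 1 was called lower, Srsf9 (7.02%), and 0 higher (6.54%). Under scaling by total reads or by the upper quartile, none of these genes was called in any comparison.

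Among the SR and Tra2 genes the median log2 difference was −0.32, 0.00 and −0.16 in the Ptbp1, Ptbp2 and double knockdowns. Srsf9 had 66.2, 100.3 and 64.8 CPM in these knockdowns, against 99.7 CPM in control cells. Srsf11 had 156.5, 240.0 and 210.1 CPM in these knockdowns, against 233 CPM in control cells. Both were low with Ptbp1 depleted alone and near control with Ptbp2 depleted, but only Srsf9 was about as low in the double knockdown.

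Srsf1 had 529, 718 and 592 CPM in the Ptbp1, Ptbp2 and double knockdowns, against 768 CPM in control cells, with log2 differences of −0.54, −0.10 and −0.38. Srsf3 had 426, 554 and 460.4 CPM, against 596 CPM in control cells, with log2 differences of −0.48, −0.10 and −0.37. In exon reads both were below control in all 3 knockdowns. By FPKM Srsf3 was at 97.4, 129 and 124 in the Ptbp1, Ptbp2 and double knockdowns, against 122 in control cells. It was thus below control by FPKM in the Ptbp1 knockdown only. Srsf1 could not be compared by FPKM. Tra2a had 128, 159.5 and 142 CPM in the Ptbp1, Ptbp2 and double knockdowns, against 155 CPM in control cells. Tra2b had 221, 274 and 256 CPM, against 277 CPM in control cells, and Srsf7 had 295, 363 and 336 CPM, against 365 CPM in control cells. In exon reads these 3 genes lay less than 0.14 below control on the log2 scale, and by FPKM they lay above it, in the double knockdown, where their poison exons were at their highest inclusion.

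Among the hnRNP genes the median log2 difference was −0.46, −0.02 and −0.36 in the Ptbp1, Ptbp2 and double knockdowns. Hnrnpab, which binds single-stranded nucleic acid, had 922, 1561 and 1104 CPM in these knockdowns, against 1417 CPM in control cells. Its FPKM was 294, 501 and 349, against 507 in control cells. Hnrnpf, which like Hnrnph2 binds G-rich runs, had 303, 519.8 and 417 CPM, against 458 CPM in control cells. Both were lowest in the Ptbp1 knockdown and above control in exon reads in the Ptbp2 knockdown.

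Hnrnpk had 914, 1082 and 898 CPM in the Ptbp1, Ptbp2 and double knockdowns, against 1323 CPM in control cells, and had the lowest value of the 33 in the Ptbp2 knockdown, −0.29 on the log2 scale. Its FPKM did not follow, at 224, 197 and 158 in the Ptbp1, Ptbp2 and double knockdowns, against 181 in control cells. Hnrnpu, which binds nuclear RNA and chromatin, had 1126, 1583 and 1139.9 CPM, against 1607 CPM in control cells. In exon reads both genes were more than 0.49 below control on the log2 scale in the Ptbp1 and double knockdowns.

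The core hnRNP genes lay close together. Hnrnpa1, which represses exons through UAG-type elements, had 2150.1, 2796 and 2094 CPM in the Ptbp1, Ptbp2 and double knockdowns, against 2952 CPM in control cells. Hnrnpa2b1 had 1279, 1860.4 and 1324 CPM, against 1797 CPM in control cells. Hnrnpa3 had 1060.3, 1381 and 1079 CPM, against 1461 CPM in control cells. All of these were lower in the Ptbp1 and double knockdowns, with log2 differences from −0.50 to −0.44. Reads of Hnrnpa1 and Hnrnpa3 may include processed copies elsewhere in the genome, so their levels are uncertain.

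Hnrnpc had 364, 506 and 406 CPM in the Ptbp1, Ptbp2 and double knockdowns, against 512 CPM in control cells. Hnrnpm had 335, 476 and 363 CPM, against 461 CPM in control cells. Hnrnpl, which binds CA repeats, had 323, 420.2 and 305 CPM, against 419 CPM in control cells. In exon reads, for these 3 the Ptbp2 knockdown was within 0.05 of control on the log2 scale and the others were lower. By FPKM in the double knockdown, Hnrnpc was above control, at 99.6 against 90.1 in control cells. Hnrnpl was below it, at 148 against 227.

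In exon reads, few of the genes were above control by more than 0.2 on the log2 scale. In the double knockdown this held for Matr3, a nuclear matrix protein that works with Ptbp1, which had 484, 504 and 652 CPM in the Ptbp1, Ptbp2 and double knockdowns, against 554 CPM in control cells. Its log2 difference in the double knockdown was 0.23. In the Ptbp2 knockdown it held for Hnrnph2, at 0.33, Srsf4, at 0.25, and Hnrnpd, at 0.23. Raver1, which binds Ptbp1 as a co-repressor, was at −0.36, −0.04 and −0.29 in the Ptbp1, Ptbp2 and double knockdowns. Pcbp1, a poly(C) binding protein with FPKM only, was at 180.2, 181 and 108 FPKM, against 189 FPKM in control cells. By FPKM, more genes passed 0.2 above control. In the double knockdown these were Tra2b, U2af1, Srsf11 and Tra2a, at 0.39, 0.26, 0.23 and 0.23. In the Ptbp2 knockdown Tardbp, U2af1, Hnrnph2 and Tra2b were at 0.82, 0.62, 0.41 and 0.40. Srsf5, Hnrnpa2b1, Tra2a and Hnrnpf were there at 0.35, 0.31, 0.25 and 0.23. Hnrnpk was at 0.31 in the Ptbp1 knockdown.

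**Figure D4:**
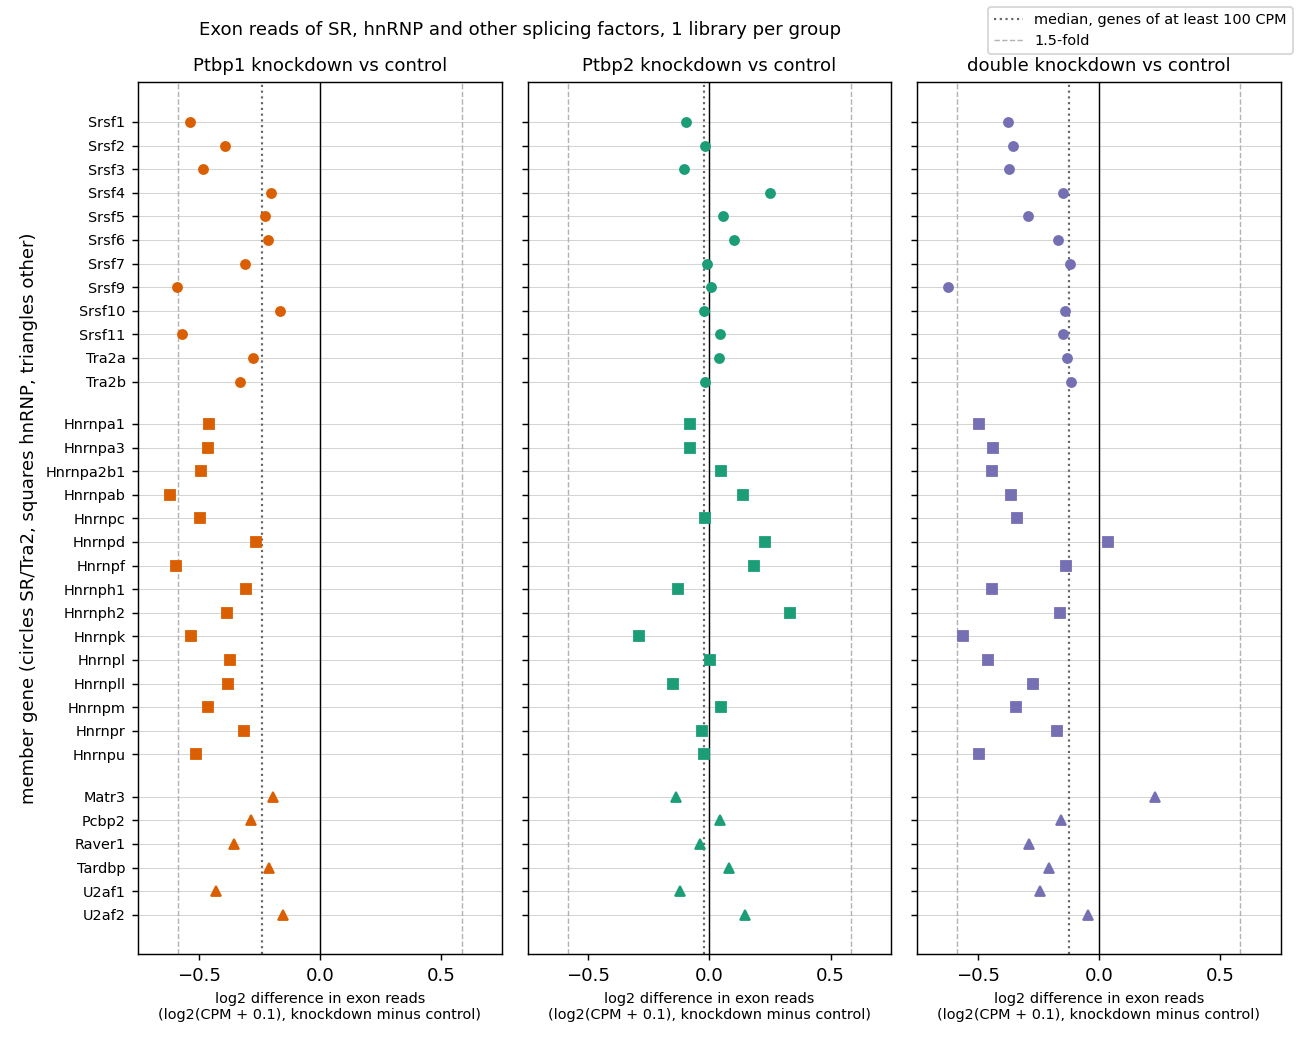
Log2 difference in exon reads (knockdown minus control) of the 33 measured genes in each knockdown, with dashed lines at 1.5-fold and a dotted line at the median of genes of at least 100 CPM. All 33 points lie left of 0 when Ptbp1 was knocked down, 17 of them when Ptbp2 was, and 31 when both were.

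The 20 genes with FPKM in all 4 libraries had loci that held no other gene. In the Ptbp1 knockdown 1 was called lower by FPKM, Hnrnpab (3.63% of all genes), and 0 higher (9.08%). By FPKM, Tardbp and U2af1 were called higher in the Ptbp2 knockdown, at 124 and 38.9 against 70.0 and 24.9 in control cells, where 4.51% of all genes were, and 0 were called lower (7.08%). In exon reads neither passed 1.5-fold, with log2 differences of 0.08 and −0.12. Pcbp1 was the gene called lower by FPKM in the double knockdown (5.03% of all genes), with 0 higher (7.6%). Hnrnpl was not among the 20, as it had no FPKM in the Ptbp2 knockdown. It was past 1.5-fold lower in the Ptbp1 and double knockdowns, at −0.60 and −0.61 on the log2 scale. Srsf11, at −0.58 in the Ptbp1 knockdown, fell just short of 1.5-fold, and passed it at −0.60 with a pseudocount of 0.1.

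Other genes of the decay pathway were read from fixed lists. Of 15 measured NMD and exon junction complex genes, 0 were called in either direction in any comparison, with median log2 differences of −0.14, 0.12 and −0.01 in the Ptbp1, Ptbp2 and double knockdowns. Of 5 measured transcripts known as NMD targets, 2, 5 and 5 were above control in the Ptbp1, Ptbp2 and double knockdowns. Of all 10876 genes tested, 4729, 5378 and 5155 were above control in the same order. Snhg12, a small nucleolar RNA host gene, had 43.5, 71.9 and 73.6 CPM in the Ptbp1, Ptbp2 and double knockdowns, against 46.3 CPM in control cells. Ddit3, a stress response gene, had 71.1, 59.7 and 81.0 CPM, against 48.8 CPM in control cells. These genes had the largest gains in the double knockdown. On the log2 scale, Snhg1 differed by −0.47, 0.51 and 0.26 in the Ptbp1, Ptbp2 and double knockdowns. Gadd45b differed by 0.79, 0.02 and 0.20, and Atf4 by −0.15, 0.15 and 0.02. The part of these differences in the inclusion of the poison exons was not tested.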

How the data were processed

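Libraries were poly(A), strand-specific and sequenced on a HiSeq2000, per the labels' protocols. Reads were processed with CASAVA, TopHat and Cufflinks on mm9, per the submitters' processing notes; versions, and how counting used strand, are not given in the sources used here. SpliceTrap tables, as deposited, hold junction read counts, an exon coverage signal and an inclusion fraction per exon trio, per the file headers, and a Cufflinks score column was read only with its coordinates. The deposited FPKM values were rescaled to a common total in each library. Exon reads are coverage times size over 100, whole numbers within 0.02, summed over unique exons and scaled by the median of ratios. Differences are log2(CPM + 0.1), and FPKM differences are log2(FPKM + 1). Genes below 1 CPM in all libraries were left out of the background. Trios took gene names from RefSeq transcripts (94.9% named), and exon classes from GENCODE M21 by exon and intron lengths. Inclusion averages the reads of the 2 junctions into the exon and divides by their average plus the skipping reads, 1 trio per exon. Computation used Python 3.11.15 with pandas 2.3.3 and numpy 2.4.6, and was tested on simulated data. Members and lists were chosen with earlier results of these data known. Named genes are those called, then the largest differences up to 14, then those with a named exon. Named exons are frame-breaking ones called, then an NMD exon for each other SR or Tra2 gene that had one; Hnrnpd and all untranslated exons were added after values were seen.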

Additional observations from a re-analysis of the deposited data

How the results depend on the processing

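No paired analysis was possible because each group is 1 library, and no library could be left out for the same reason. Counts of genes called in level were 3, 0 and 1 in the Ptbp1, Ptbp2 and double knockdowns. They became 0 and 0 for the Ptbp1 and double knockdowns at 2-fold, with total scaling and with the upper quartile, and 20, 1 and 14 at the lower fold threshold that was tried, in the order Ptbp1, Ptbp2 and double knockdown. By FPKM they were 1 for the Ptbp1 knockdown and 2 for the Ptbp2 knockdown with a pseudocount of 1, and 2 for the Ptbp2 knockdown with 0.1. The called cassette exons, 1, 0 and 6, became 4 and 3 in the Ptbp1 and Ptbp2 knockdowns by SpliceTrap ratio, 0 and 3 in the Ptbp1 and double knockdowns at 20 points, and 7, 8 and 13 at 5 points. Without the interval condition they were 3 and 2 in the Ptbp1 and Ptbp2 knockdowns, and 1 in the Ptbp2 knockdown by the lower inclusion junction. The 3 splice site events of the double knockdown became 0 at a ratio difference of 0.2. The NMD exons above control, 6, 7 and 7 of 7, were 6, 6 and 7 by SpliceTrap ratio and 5, 7 and 7 by the lower junction, both added after the data were seen. Genes below control in exon reads, 33, 17 and 31 of 33, were 27, 9 and 24 with total scaling, 33, 11 and 31 with the upper quartile, and 14, 6 and 10 of 20 by FPKM. The other counts of called genes, exons and events stayed within 1.5 times, and no called gene or exon reversed. The cause of these shifts was not tested. Without replicates, differences between libraries of 1 group are unknown.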

Other observations

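Exon reads of other splicing genes were read from lists chosen with earlier results known. Of 10 measured factors that read the branch point and 3′ splice site, 0 were called in any comparison, with median log2 differences of −0.27, 0.11 and −0.15 in the Ptbp1, Ptbp2 and double knockdowns. Of 8 measured SR kinases and import factors, 0 were called, with medians of −0.16, 0.02 and 0.06. Of 23 other SR-like and hnRNP proteins, 1 was called higher in the Ptbp1 knockdown and 1 in the double knockdown. These were Srsf12, at 2.11 CPM in the Ptbp1 knockdown against 1.21 CPM in control cells, and Pspc1, a paraspeckle protein, at 106.6 CPM in the double knockdown against 60.3 CPM in control cells. Ptbp3, the paralog of the shRNA targets, was at 79.8, 89.8 and 79.7 CPM in the Ptbp1, Ptbp2 and double knockdowns, against 149.9 CPM in control cells.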
